A study of Homo sapiens with 5 samples.

Results

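E2F1-only distal regions are places away from gene starts where E2F1 was enriched on chromatin and neither Fra-1 nor MYC gave a peak. They were mapped in LM2 cells, a lung-metastatic derivative of the human breast cancer line MDA-MB-231, by chromatin immunoprecipitation and sequencing (ChIP-Seq). Members were defined by peak overlaps: an E2F1 peak on chromosomes 1 to 22 or X was kept when it shared no base with a Fra-1 peak, a MYC peak or the window from 2 kb upstream to 2.5 kb downstream of an annotated transcription start site (TSS). Of 36901 E2F1 peaks, 11812 lay outside every such window and 4566 were members. That is 12.4% of all E2F1 peaks and 38.7% of the distal ones. The count depends on the rule and on the lengths of the peak lists: it was 2180 with a window of 10 kb either side of the TSS, 2927 with E2F1 peaks within 1 kb merged and 108 with every list cut to the length of the shortest. Among the other distal peaks, 6697 overlapped a Fra-1 peak only, 158 a MYC peak only and 391 both.

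The cells were untreated per the labels, but a legend in the study's supplement describes ChIP-Seq cells as carrying a control vector or an shRNA, so that it is not settled whether they carried a vector. Only 1 ChIP library per factor and 1 input library shared by all factors were used, so that nothing here has a replicate and no test was made. Intervals given are 95% intervals that cover counting error only. Regions are not replicates, and neighbouring regions share their source. EZH2 ChIP was also performed in these cells and was not analysed here. After removal of duplicate tags, the libraries held 18056168 tags for E2F1, 12931227 for Fra-1, 23853621 for MYC and 10758036 for input. A region without a Fra-1 or MYC peak is one where no peak passed the q-value cutoff of 0.01 at these depths, which does not show that the factor was absent.

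E2F1 is a transcription factor that binds DNA with a DP partner and is held back by the retinoblastoma family of pocket proteins. It is best known for its sites at the promoters of cell cycle and DNA replication genes. Fra-1, encoded by FOSL1, pairs with JUN proteins in the AP-1 dimer, which is known mostly from enhancers in invasive breast cancer cells. Distal sites of a promoter-binding factor can therefore be read against several kinds of sequence: an E2F site, an AP-1 site, a CpG-rich stretch, or the site of CTCF, the zinc-finger protein at domain boundaries.

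The following windows of 101 bp around the E2F1 summit, which is the base with the highest pileup, show these kinds of sequence. They are plus-strand sequence of the reference genome (GRCh37, the build named hg19 in the peak lists), named by the protein-coding gene that holds the summit or whose TSS is nearest, and none overlaps an annotated exon. The first 4 are shown for E2F sites, in capitals. NRP2 and SSC5D are the strongest members with the 8-base E2F site, and EPG5 and INSR the strongest with its 7-base core.
NRP2 (chr2:206750423-206750523): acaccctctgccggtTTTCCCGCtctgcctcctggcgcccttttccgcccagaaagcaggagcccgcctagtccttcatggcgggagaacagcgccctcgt
SSC5D (chr19:56015171-56015271): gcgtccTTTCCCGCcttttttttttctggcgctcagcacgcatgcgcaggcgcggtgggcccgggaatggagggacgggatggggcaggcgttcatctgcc
EPG5 (chr18:43355234-43355334): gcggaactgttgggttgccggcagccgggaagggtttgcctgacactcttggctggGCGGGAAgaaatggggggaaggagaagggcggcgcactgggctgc
INSR (chr19:7099040-7099140): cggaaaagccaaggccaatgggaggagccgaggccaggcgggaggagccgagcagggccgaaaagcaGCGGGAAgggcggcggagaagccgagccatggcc

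The next pair is shown for the AP-1 site, in capitals, and both are among the 5 strongest members that carry one. The ACBD5 window also holds the 7-base E2F core, left in lower case near its right end.
ACBD5 (chr10:27608951-27609051): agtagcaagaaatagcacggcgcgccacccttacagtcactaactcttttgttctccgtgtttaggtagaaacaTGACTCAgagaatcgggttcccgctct
TACC2 (chr10:123829464-123829564): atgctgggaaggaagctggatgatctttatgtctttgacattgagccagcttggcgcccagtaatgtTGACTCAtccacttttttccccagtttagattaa

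These 3 are the strongest members with a CTCF site, in capitals.
FRMD8 (chr11:65183922-65184022): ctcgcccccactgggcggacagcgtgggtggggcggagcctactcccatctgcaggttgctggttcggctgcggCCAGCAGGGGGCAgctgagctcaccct
TUBA1C (chr12:49629031-49629131): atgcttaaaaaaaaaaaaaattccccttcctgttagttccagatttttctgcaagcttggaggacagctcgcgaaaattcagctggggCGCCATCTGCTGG
CRYBA2 (chr2:219860905-219861005): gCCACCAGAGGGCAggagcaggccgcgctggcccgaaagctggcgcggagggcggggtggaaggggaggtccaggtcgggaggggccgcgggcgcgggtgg

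The last window belongs to the strongest member of all and is shown because it holds none of these sites.
PTPRS (chr19:5309052-5309152): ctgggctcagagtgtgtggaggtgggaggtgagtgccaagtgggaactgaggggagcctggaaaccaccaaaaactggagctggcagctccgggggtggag

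E2F1 was weaker at these regions than at promoters. Strength is given as the deposited fold enrichment, the ratio of the ChIP pileup at the summit to the local background from input. The same peak calls define the members, so these values are a description. The median over the members was 6.46-fold (6.43 to 6.61), with quartiles of 5.10 and 8.84 and a range from 2.37 to 77.8. It was 7.05-fold at the 6697 distal peaks shared with Fra-1 and 9.70-fold at the 18974 promoter peaks with neither Fra-1 nor MYC, called E2F1-only promoter peaks here. Of the 4566 members, 831 (18.2%) reached 10-fold and 152 (3.33%) reached 20-fold, whereas 43.7% of all E2F1 peaks reached 10-fold. The median pileup at the summit was 14 scaled tags in members, 20 in distal peaks with Fra-1 and 19 in E2F1-only promoter peaks. Members were also the narrowest class, with a median width of 198 bp against 239 and 295 bp. A narrow peak has less room to overlap another peak or a promoter window, so the width is tied to the rule that chose the members.

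**Figure D1:**
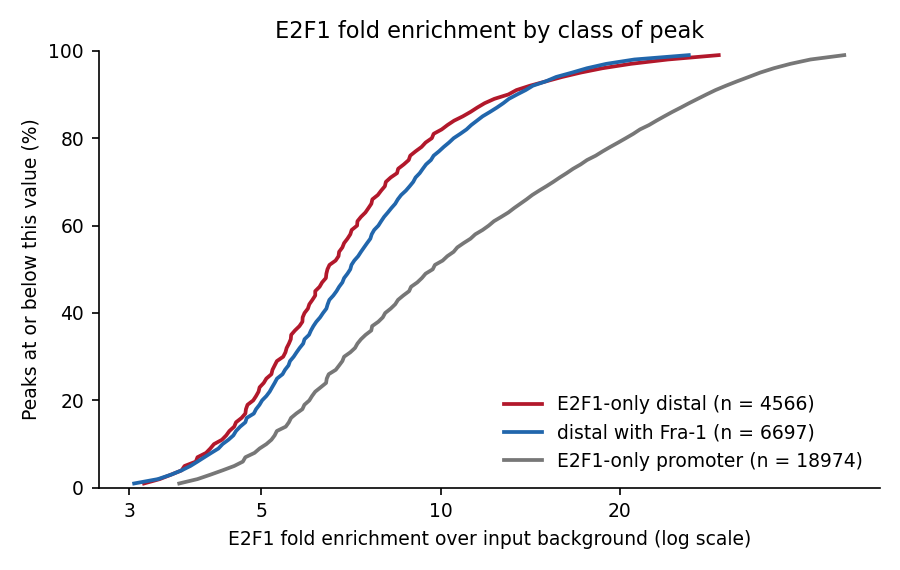
Cumulative share of peaks (y axis, %) by E2F1 fold enrichment over the input background (x axis, log scale) for 3 classes of E2F1 peak, 1 library. The curve of the 4566 E2F1-only distal regions lies left of the E2F1-only promoter curve over the whole range and close to that of the distal peaks with Fra-1, with medians of 6.46, 9.70 and 7.05.

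The input background at the summit, worked back from fold enrichment and pileup, had a median of 1.12 scaled tags in members, 1.94 in distal peaks with Fra-1 and 0.960 in E2F1-only promoter peaks. A background of 3 or more was found at 408 members (8.94%), and these were weak, with a median of 4.24-fold. They made up 26.7% of the members under 5-fold and 1.55% of those at 15-fold or more. Such a background was found at 8.02% of all E2F1 peaks and 20.1% of distal peaks with Fra-1. Over all E2F1 peaks it was found at 30.6% under 5-fold and 1.51% at 15-fold or more. The members were thus near E2F1 peaks in general. By chromosome, the share of members with such a background was highest on chromosomes 10 (17.6%) and 3 (17.0%). Their part in the results was not tested beyond leaving them out, which moved the median to 6.76-fold and the share with an AP-1 site from 7.10% to 7.02%.

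The edges of the rule were as follows. The 100 members nearest to a promoter window had a median of 6.92-fold and the 100 E2F1-only promoter peaks with the least overlap of a window 6.44-fold. For Fra-1, the 100 members nearest to a Fra-1 peak, 4 to 112 bp away, had a median of 5.83-fold, and the 100 distal peaks with 1 to 72 bp of overlap 4.88-fold. For MYC, the values were 8.16-fold for the 100 nearest members and 11.7-fold for the 100 distal peaks with the least overlap. The 100 members with the lowest significance had −log10 q values of 2.02 to 2.75 and a median of 3.51-fold.

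Introns held the larger part of the summits, as they did at distal peaks with Fra-1. An intron held 52.4% of them (50.9 to 53.8), an exon 6.64% and the space between annotated genes 41.0%. At distal peaks with Fra-1 the shares were 60.1%, 4.14% and 35.8%, and over all E2F1 peaks 42.5%, 33.6% and 23.9%. The rule removed promoter peaks, so the difference from all E2F1 peaks is tied to it. The shares of the genome in these places were not compared. Protein-coding genes held 2138 members (46.8%), and another 556 (12.2%) lay only in genes of other types, 532 of them in long non-coding RNA genes. The median distance to the nearest annotated TSS was 9536 bp. A TSS was within 10 kb for 51.9% of members, within 50 kb for 94.0% and within 100 kb for 98.8%. At distal peaks with Fra-1 these shares were 40.6%, 88.9% and 97.2%, and over all E2F1 peaks 82.6%, 97.2% and 99.3%, so the last is near that of E2F1 peaks in general. Members inside protein-coding genes were spread along the gene body, with between 18.5% and 22.2% in each of 5 equal stretches of the gene. The last 2 kb of the gene held 133 of the 2138 (6.22%, 5.27 to 7.33), against 82 of 3314 distal peaks with Fra-1 (2.47%, 2.00 to 3.06), and these intervals do not overlap.

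Members were closer to other E2F1 peaks than distal peaks with Fra-1 were, and less close than E2F1 peaks in general. The nearest other E2F1 peak was within 1 kb for 43.7% of members, against 19.0% of distal peaks with Fra-1, 71.4% of E2F1-only promoter peaks and 54.8% of all E2F1 peaks. That neighbour lay within 1 kb and in a promoter window for 2.45% of members. The median distance to another E2F1 peak was 2064 bp in members, 10501 bp in distal peaks with Fra-1 and 589 bp over all E2F1 peaks. From members the median distance was 10681 bp to a Fra-1 peak and 142495 bp to a MYC peak. Over all E2F1 peaks it was 11258 and 92863 bp, so for Fra-1 the members were near E2F1 peaks in general. A Fra-1 peak stood within 1 kb of 20.5% of members and a MYC peak within 1 kb of 3.61%. Over all E2F1 peaks these shares were 34.6% and 17.6%. The rule removed every peak that overlapped a Fra-1 or MYC peak, so the lower values in members are tied to it. The MYC list is the shortest, with 4857 peaks against 17311 for Fra-1, so the distances to the lists are not comparable with each other.

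**Figure D2:**
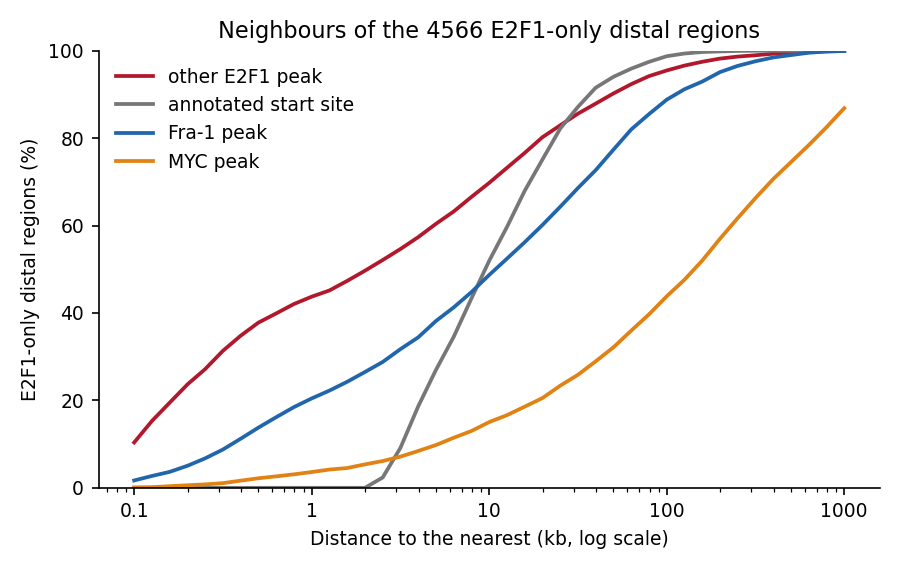
Cumulative share of the 4566 E2F1-only distal regions (y axis, %) by distance to the nearest other E2F1 peak, annotated TSS, Fra-1 peak and MYC peak (x axis, kb, log scale). At 1 kb the curves stand at 43.7% for E2F1, 20.5% for Fra-1 and 3.61% for MYC, and the TSS curve starts near 2 kb because the rule removed closer peaks.

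Most members were not CpG-rich. A window of 201 bp around the summit was called CpG-island-like when its GC content was at least 50% and its ratio of observed to expected CpG at least 0.6. By this measure 639 members (14.0%, 13.0 to 15.0) were CpG-island-like, against 1.81% of distal peaks with Fra-1, 59.8% of E2F1-only promoter peaks and 41.4% of all E2F1 peaks. Windows 2 kb to the left of the members passed at 3.22%. The median GC content was 52.7% at the members' summits and 46.3% in the windows 2 kb to either side. The CpG-island-like members were stronger than the others, with medians of 8.84-fold (8.47 to 9.14) and 6.26-fold (6.16 to 6.36), and 54.6% of them lay between genes. They were also farther from Fra-1, with a median distance of 33415 bp to the nearest Fra-1 peak against 8612 bp for the rest. GC content moved with these folds, and its part in them was not tested.

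E2F sites were present above the sequence background at few regions. The 8-base site was searched as TTTCCCGC, TTTCGCGC, TTTGCCGC or TTTGGCGC on both strands within 50 bp of the summit. It was found at 62 members (1.36%, 1.06 to 1.74), against 1.68% of all E2F1 peaks, 2.07% of E2F1-only promoter peaks and 0.388% (0.265 to 0.568) of distal peaks with Fra-1. The same letters in reversed order, which keep the base composition, were found at 0.745% of members (0.533 to 1.04), and windows 2 kb away held the site at 0.208%. The forms TTTGCCGC and TTTGGCGC gain a CpG when reversed, so the reversed letters are a weak background for the 8-base site. The 7-base core TTCCCGC, which the first of the 8-base forms contains, was found at 137 members (3.0%, 2.54 to 3.54), against 3.63% of all E2F1 peaks and 1.21% (0.974 to 1.5) of distal peaks with Fra-1. Reversed, it was found at 1.38% of members (1.08 to 1.76). Together 160 members (3.50%) held at least 1 form. The 8-base site was thus 1.82 times and the core 2.17 times as frequent as the reversed letters, and the 8-base intervals just miss each other. At distal peaks with Fra-1 these ratios were 2.60 and 2.38, and over all E2F1 peaks 1.74 and 2.40. An excess of this size is therefore not particular to the members. The core was added after short words were counted in these sequences, so its excess is a description fixed in part by that choice. Where the core was found, its centre lay a median of 22 bp from the summit.

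AP-1 sites were more frequent in absolute terms, although Fra-1 gave no peak at these regions. TGACTCA or TGAGTCA was found at 324 members (7.10%, 6.39 to 7.88), against 12.2% of all E2F1 peaks and 39.3% (38.2 to 40.5) of distal peaks with Fra-1. This is the site that Fra-1 binds, so the difference between both distal classes is tied to the rule. The share in members was nevertheless 3.77 times that of the reversed letters (1.88%, 1.53 to 2.32) and 4.02 times that of windows 2 kb away (1.76%, 1.51 to 2.05), and it was higher than at E2F1-only promoter peaks (1.93%, 1.74 to 2.13). Of all members, 8 held both an E2F and an AP-1 site. The members with an AP-1 site had a median of 6.16-fold (5.91 to 6.39), and those with an E2F site of either length 7.90-fold (7.25 to 8.59).

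AP-1 sites were least frequent next to a Fra-1 peak, and this order is tied to the rule. The rule took out E2F1 peaks that overlap a Fra-1 peak, and 39.3% of the distal peaks with Fra-1 held an AP-1 site. How much of the order follows from that was not tested. Members within 1 kb of a Fra-1 peak held one at 4.50% (3.34 to 6.02), members at 1 to 10 kb at 7.44%, at 10 to 100 kb at 7.81% and beyond 100 kb at 8.41% (6.31 to 11.1). The shares with the E2F core in the same 4 ranges were 2.03% (1.31 to 3.16), 1.63% (1.07 to 2.48), 3.71% (2.94 to 4.68) and 5.68% (3.98 to 8.03), so the lowest was at 1 to 10 kb. The median fold enrichment moved little, from 6.01 to 6.85.

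CTCF sites were more frequent in the members than in both other classes compared, with no overlap of intervals. A 13-base CTCF motif was found at 66 members (1.45%, 1.14 to 1.83), against 0.455% of all E2F1 peaks and 6 of the 6697 distal peaks with Fra-1 (0.0896%, 0.0411 to 0.195). At E2F1-only promoter peaks the share was 0.395% (0.315 to 0.495), at all Fra-1 peaks 0.196% and at all MYC peaks 0.926% (0.693 to 1.24). The reversed motif was found at 0 of the 4566 members, with an upper limit of 0.0841%, and at 2 of all 36901 E2F1 peaks. It requires a CpG that the motif itself does not, so it is a weak background. Windows 2 kb away held the motif at 0.0986%, so the summits stood 14.7 times above their surroundings. Those windows hold less GC than the summits (medians of 46.3% and 52.7%), and the part of GC in this ratio was not tested. The centres of the motifs lay a median of 24.5 bp from the summit. Of these members, 2 also held an AP-1 site and 5 an E2F site. Their strength was ordinary, with a median of 6.65-fold (5.86 to 7.57), and the strongest were the FRMD8 (19.6-fold), TUBA1C (17.1-fold), CRYBA2 (15.0-fold), SLC25A33 (13.8-fold) and CRY2 (11.5-fold) regions. Within 1 kb of a Fra-1 peak, 1 of 934 members held the motif (0.107%, 0.0189 to 0.604), and at 10 to 100 kb 41 of 1831 did (2.24%, 1.65 to 3.02). No CTCF ChIP was analysed here, and a motif is a sequence match that does not show binding.

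Among the other motifs, GGAATG, bound by TEAD proteins, was found at 9.33% of members (8.52 to 10.2), TGTGGTT, bound by RUNX proteins, at 3.35% (2.87 to 3.91), and ACTTCCT, an ETS-type site, at 6.55% (5.87 to 7.30). The ratio to the reversed letters was 3.28 for TEAD, 2.78 for RUNX and 2.88 for ACTTCCT, and the ratio to windows 2 kb away was 1.74, 1.78 and 2.82. ACTTCCT was added after short words were counted in these sequences, so its excess is a description fixed in part by that choice. E2F1-only promoter peaks held them at 5.25%, 1.24% and 3.02%. Distal peaks with Fra-1 held them at 13.4%, 5.21% and 6.81%, and for the ETS-type site the intervals of both distal classes overlap (6.23 to 7.44 with Fra-1). GGGCGG, bound by SP and KLF proteins, was found at 8.98% of members and its reversed letters at 10.5%. The stretch GGGCGGG holds both words, so the reversed letters count some of the same sites and are no background here. The E-box CACGTG of MYC was found at 1.93% of members against 2.41% reversed. The ETS site CCGGAAG was found at 66 members (1.45%, 0.868 times the reversed letters) and the CRE TGACGTCA at 11 (0.241%, equal to the reversed letters). The E-box, ETS and CRE motifs hold a CpG that their reversed letters lack. At the members the median ratio of observed to expected CpG was 0.286. Their ratios to reversed letters therefore cannot show whether these sites were in excess. Windows 2 kb away hold less GC. Against them, these 4 motifs were 3.47 (SP/KLF), 1.60 (E-box), 3.38 (ETS) and 7.33 (CRE) times as frequent at the summits. The CRE ratio rests on 11 summits and 3 of 9132 windows. Over all E2F1 peaks each ratio was higher, with 3.73 (SP/KLF), 2.17 (E-box) and 7.92 (ETS). At distal peaks with Fra-1 the ratios were 1.89, 1.02, 2.57 and 12.0. The shares over all E2F1 peaks were 14.7%, 2.56%, 3.39% and 0.466%, each above that of the members. Such an excess is therefore not particular to the members. No E2F, AP-1 or CTCF site was found within 50 bp of the summit of 4031 members (88.3%).

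**Figure D3:**
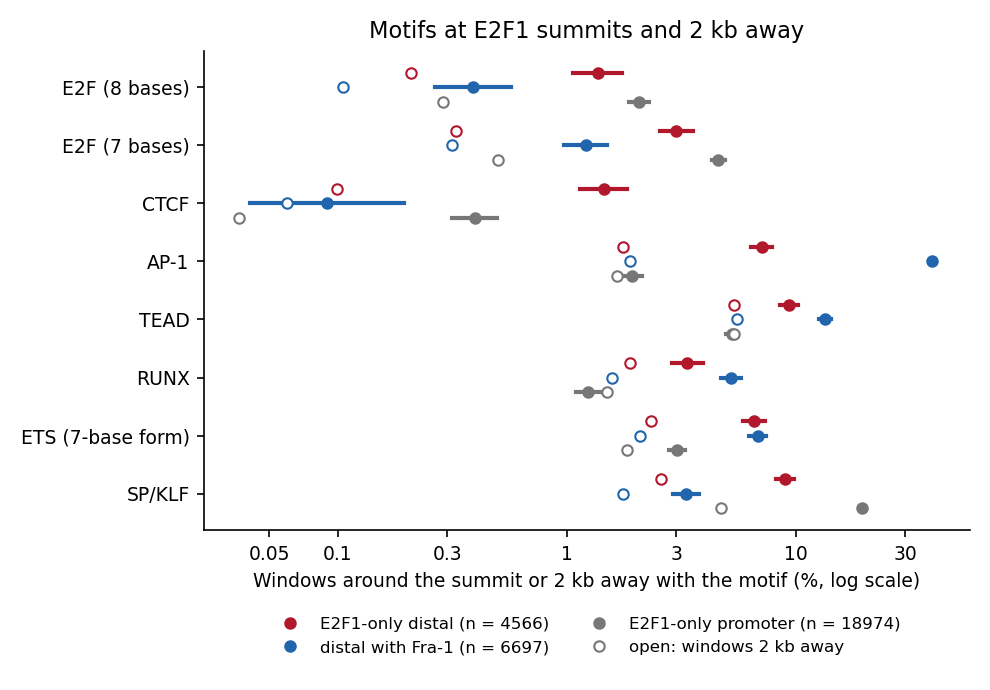
Share of 101-bp windows with each motif (x axis, %, log scale) at summits (filled, with 95% Wilson intervals as bars) and in windows 2 kb to either side (open) for 3 classes of E2F1 peak. In the E2F1-only distal regions CTCF stood at 1.45% against 0.0896% in the distal peaks with Fra-1, and AP-1 at 7.10% against 39.3%.

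**Figure D4:**
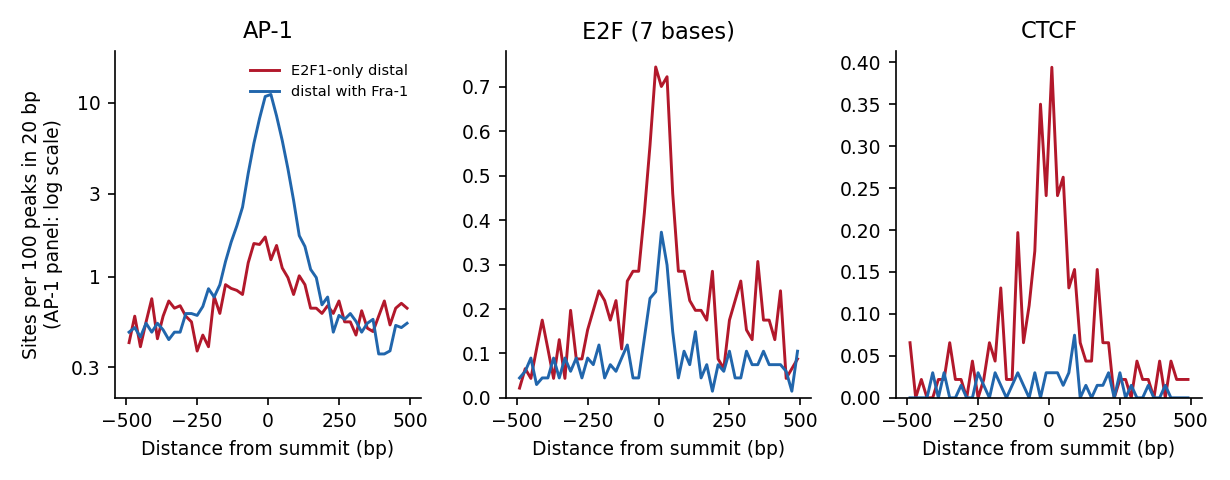
Motif sites per 100 peaks in bins of 20 bp (y axis, log scale for AP-1 only) by distance from the E2F1 summit (x axis, bp) in E2F1-only distal regions and distal peaks with Fra-1. All 3 motifs are densest near the summit in the E2F1-only distal regions, and the highest CTCF bin holds 18 sites, 0.394 per 100 peaks.

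The make-up of the members differed with their strength, and most of these orders were also seen over all E2F1 peaks. Among the 1067 members under 5-fold, 9.0% held an AP-1 site (7.42 to 10.9) and 1.41% the 7-base E2F core (0.854 to 2.31). Among the 322 members at 15-fold or more, 2.17% held an AP-1 site (1.06 to 4.42) and 8.39% the E2F core (5.83 to 11.9). The CpG-island-like share went from 4.12% to 38.2%, the median GC content from 47.8% to 60.2%, and the share between genes from 36.3% to 52.5%, while the share in introns went from 58.4% to 39.4%. Over all E2F1 peaks in the same ranges, the AP-1 share went from 18.3% to 4.54%, the E2F core from 1.14% to 6.32%, the CpG-island-like share from 11.1% to 74.4% and the intron share from 57.6% to 22.8%. At distal peaks with Fra-1 the E2F core went from 0.229% to 4.87% and the CpG-island-like share from 0.306% to 7.42%, while AP-1 went from 40.3% (37.7 to 43.0) to 35.2% (31.0 to 39.6), with overlapping intervals. The share between genes went the other way over all E2F1 peaks, from 25.4% to 21.5%. At distal peaks with Fra-1 it rose as in the members, from 35.0% to 44.5%. Each of these orders was thus seen in another class too and is not particular to the members. CTCF sites in the members showed no such order, with 0.932% to 1.96% over the 5 ranges and overlapping intervals. Only 3 of the 322 members at 15-fold or more held one, so a fall there could be missed. Over all E2F1 peaks the CTCF share went from 0.613% (0.424 to 0.884) to 0.116% (0.0666 to 0.203). At E2F1-only promoter peaks it went from 0.664% to 0.0337%. Member widths went from a median of 161 bp to 472 bp. Background moved in the opposite direction, as given above for the values of 3 or more, and its part in this order was not tested.

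**Figure D5:**
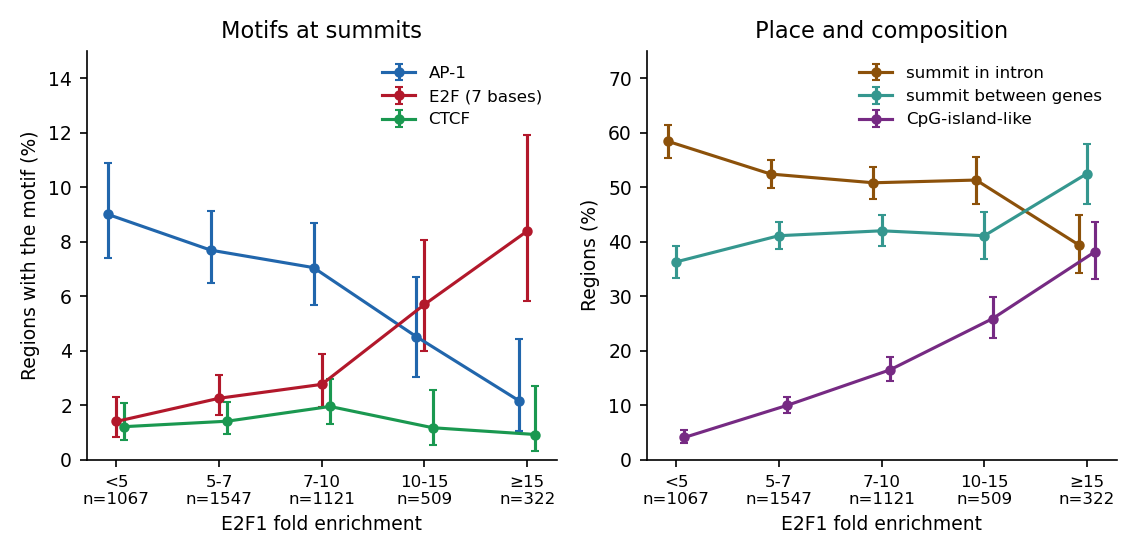
Share of E2F1-only distal regions (y axes, %) with a motif at the summit (left) or with a given place and composition (right) in 5 ranges of E2F1 fold enrichment (x axes, with n), with 95% Wilson intervals. AP-1 goes from 9.0% to 2.17% and the 7-base E2F core from 1.41% to 8.39%, and the CpG-island-like share goes from 4.12% to 38.2%.

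The strongest member lay in an intron of PTPRS, a receptor protein tyrosine phosphatase (chr19:5308777-5309427), with 77.8-fold enrichment and a pileup of 112. It held no E2F, AP-1 or CTCF site, and despite a GC content of 63.2% its ratio of observed to expected CpG was 0.0556. The second, at 58.1-fold, lay 2926 bp from the nearest TSS, that of the zinc-finger gene ZSCAN16, inside its antisense gene ZSCAN16-AS1 (chr6:28072308-28073370). Next came regions between genes, whose nearest protein-coding TSS were those of EPG5, an autophagy gene (52.3-fold), and INSR, the insulin receptor (49.9-fold). Both held the 7-base E2F core shown above. Regions nearest to GLDC, the glycine decarboxylase (49.0-fold), and ATP10A, a phospholipid flippase (47.0-fold), and a region in an intron of SYNJ2, an inositol phosphatase (45.0-fold), followed. SLC22A18, a transporter gene (44.6-fold), GRB7, the adaptor gene next to ERBB2 (43.8-fold), the kinase gene PRKX (43.8-fold) and the deubiquitinase gene USP22 (42.8-fold) named the next regions by nearest TSS. The last 4 of the 15 strongest were nearest to LTN1, a ubiquitin ligase of ribosome quality control (40.3-fold), ELOVL5, a fatty acid elongase (39.9-fold), CLIC4 (39.4-fold) and PTMA (38.6-fold).

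Of these 15 regions, 4 held the 7-base core (EPG5, INSR, USP22 and CLIC4), none held the 8-base E2F site and none an AP-1 or CTCF site. The SLC22A18 and ELOVL5 regions lay 116 and 127 bp from a MYC peak. The CLIC4 region lay 325 bp from a Fra-1 peak. Nearest distance does not show that a gene is a target, and the ATP10A region was 217244 bp from that gene's TSS.

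Among the members with the 8-base E2F site, the 5 strongest were those nearest to NRP2, a semaphorin receptor (34.8-fold), in an intron of SSC5D (33.9-fold), and nearest to NTN5 (25.9-fold), ATP4B, a subunit of the gastric proton pump (22.4-fold), and SEC61G, a subunit of the translocon (22.1-fold). The 5 strongest with an AP-1 site included those in an exon of the potassium channel gene KCNN1 (29.5-fold), near the kinase gene ARAF (18.9-fold), near ACBD5 (18.8-fold) and in an intron of TACC2 (18.5-fold). The KCNN1 region ranked 45th among all members and that of ARAF 176th, whereas the NRP2 region ranked 24th.

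Most host genes held only 1 member. Members lay in 1350 protein-coding genes, of which 899 (66.6%) held 1 member, 260 held 2, 131 held 3 to 4 and 60 held 5 or more. A member in overlapping genes counts for each of them. No such distribution was made for all E2F1 peaks. The most were held by BCAR3, an adaptor gene named for antiestrogen resistance, with 14, NIBAN2 and the neural adhesion gene NTM with 13 each, and BCOR, a transcriptional corepressor, with 10. ANKRD36C, BCL9L, a coactivator of beta-catenin, IQCJ, IQCJ-SCHIP1 and ENSG00000285218 held 9 each. IQCJ and IQCJ-SCHIP1 overlap and hold the same 9. The tenth gene by this order, AKR1E2, was 1 of 6 genes with 8. Long genes held members more often: 1.17% of genes under 10 kb held at least 1, 3.64% of those from 10 to 50 kb and 24.4% of those of 200 kb or more. NTM spans 966 kb and had 1.35 members per 100 kb, while BCL9L spans 32.1 kb and had 28.1 per 100 kb. The genes with the most members also held many E2F1 summits of all classes: 25 in BCAR3, 22 in NIBAN2, 20 in NTM and 16 in BCOR.

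ANKRD1 was the densest gene with at least 5 members. This gene of 8.99 kb, known as a target of the YAP coactivator, held 9 E2F1 summits of which 8 were members, from chr10:92672263-92672413 to chr10:92676905-92678004. By rising coordinate their fold enrichments were 5.70, 10.2, 5.89, 4.88, 6.67, 8.83, 7.77 and 5.81. Their pileups were between 9 and 22, their −log10 q values between 3.98 and 17.9, and their backgrounds between 1.04 and 2.96. All of these summits were of moderate strength, and none held an E2F, AP-1 or CTCF site, as was the case for 88.3% of all members. After ANKRD1, the genes with the most members per 10 kb were BCL9L (2.81), NIBAN2 (1.77), NT5E, which encodes the ectonucleotidase CD73 (1.73), and the ephrin receptor gene EPHA2 (1.58), with median fold enrichments of 5.20 to 6.57.

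Such runs were seen outside genes too. Chaining summits no more than 5 kb apart gave 185 clusters of 3 or more members, which held 681 members, and the largest had 9 (ANKRD1, and BCL9L with UPK2). Between LIF and OSM, which encode related cytokines, 7 members lay within 8.19 kb on chromosome 22, with 4.44-fold to 13.8-fold enrichment and a median background of 0.448. The 681 clustered members had a median of 6.97-fold (6.76 to 7.25) against 6.43-fold (6.34 to 6.48) for the other 3885. Fewer of them held an AP-1 or an E2F site, and the other motifs were not compared. An AP-1 site was found at 3.23% (2.14 to 4.84) of clustered members against 7.77% (6.97 to 8.66) of the others, and an E2F site of either length at 1.32% (0.697 to 2.49) against 3.89% (3.32 to 4.54). Exons held 10.1% (8.08 to 12.6) of clustered members and 6.02% (5.32 to 6.82) of the others. The median GC content was 52.7% in both sets. Clustered members are neighbours in 1 library, so these intervals are too narrow for them.

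Genes that held a member also had peaks at their starts more often. An E2F1 peak touched a promoter window of 1060 of the 1350 host genes (78.5%, 76.2 to 80.6) and of 61.3% of all 20090 protein-coding gene symbols. For Fra-1 the shares were 32.4% (29.9 to 34.9) and 13.3%, and for MYC 21.7% (19.6 to 24) and 17.8%. Long genes held members more often, as given above, and the part of gene length in these shares was not tested.

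Of 30 listed replication and cell cycle genes that E2F is known to control, 0 held a member. The interval reaches 11.4% and so includes the 6.72% of all protein-coding genes (1350 of 20090), from which this count cannot be told apart. Their median length was 22.4 kb, close to the 27.3 kb of all protein-coding genes. Of 13 genes of the E2F family and pocket proteins, 1 held a member, E2F2, itself an activator E2F, with 10.5-fold enrichment in an intron 2828 bp from the nearest TSS.

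Of 18 AP-1 and signalling genes, 5 held a member (27.8%, 12.5 to 50.9). The median length over the list was 7.19 kb, and the part of gene length in this share was not tested. FOSL1, which encodes Fra-1, held 3 within its 8.53 kb, at 11.5-fold, 8.67-fold and 7.35-fold (chr11:65661299-65661757, chr11:65662989-65663482 and chr11:65664179-65664595), and 2 of the 3 summits lay in exons. PLAU, the urokinase gene, held 2 exonic regions at 22.5-fold and 13.6-fold (chr10:75674320-75675697 and chr10:75676029-75677677). PHLDA1 held 1 exonic region at 13.3-fold with a pileup of 65, and DUSP6, an ERK phosphatase gene, 1 at 4.05-fold. EGFR, at 193 kb, held 4 intronic regions at 3.71-fold to 9.19-fold. None of these summits held an E2F, AP-1 or CTCF site, as was the case for 88.3% of all members. Of those in EGFR, 2 held a TEAD site.

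Of 20 adhesion and matrix genes, 8 held a member (40%, 21.9 to 61.3), with a median length of 48.2 kb over the list. COL4A2, a basement membrane collagen, held 5 at 4.66-fold to 10.0-fold. LAMB3, a laminin chain, held 2 at 5.21-fold and 7.05-fold. MMP1, the interstitial collagenase, held 1 exonic region at 12.1-fold, and the integrin genes ITGA2, ITGA3 and ITGA6 held 1 intronic region each at 4.42-fold, 4.11-fold and 8.45-fold. The CD44 region, at 4.34-fold, held an AP-1 site. The lists were written with earlier results of these libraries known, so their counts are descriptions beside the 6.72% of all genes.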

How the data were processed

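ChIP-Seq peaks from LM2 cells, untreated per the labels (E2F1, Fra-1 and MYC, 1 library each) were used. Per the study's methods and the submitters' processing notes, the authors used Trimmomatic 0.27 for trimming, mapped to masked hg19 by Bowtie 0.12.5 with unique hits kept, removed duplicates with Picard, and called peaks per library with MACS2 (2.0.10.20120913 in the file headers) against 1 input at a q-value cutoff of 0.01. The deposited signal is the pileup coverage at the summit, scaled between ChIP and input. The deposited fold enrichment is the ratio of pileup to local background, each plus 1. The authors deposited p- and q-values as −log10. Peaks with few tags were kept as deposited.

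Genome sequence was GRCh37 and annotation GENCODE 44 mapped to it (63827 genes, 219838 TSS positions); 0 peaks passed a chromosome end. Overlap was at least 1 bp. Motifs were searched within 50 bp of summits on both strands. TTCCCGC and ACTTCCT were added after counting short words in these sequences. Shares have Wilson intervals and medians order-statistic intervals (scipy 1.17.1). Scripts were tested on simulated intervals. Members and gene lists were chosen with earlier results of these data known. Genes were named as those of the 15 strongest regions, the 10 genes with the most regions, the 5 strongest regions with an E2F and with an AP-1 site, and listed genes that hold a region; some of these are counted but not reported here by name. The regions with a CTCF site, ANKRD1, NT5E, EPHA2, LIF, OSM, FRMD8, TUBA1C, CRYBA2, SLC25A33 and CRY2 were chosen after their values were seen. Alternatives changed cutoffs, overlap, TSS window, motif window and merging.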

Additional observations from a re-analysis of the deposited data

Results flagged for a closer look

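Outside chromosomes 1 to 22 and X, on sequences that the comparisons above did not use, the E2F1 list holds 32 peaks, of which 25 overlapped no Fra-1 or MYC peak. They are given here because they are signal outside the main measurement. These 25 lay on 10 sequences and had a median of 9.71-fold enrichment, with a range from 4.61 to 31.5.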

How the results depend on the processing

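Of 61 values recomputed under the alternatives, 35 stayed within the interval of the reported value (counts within 1.5 times) and 26 moved, and no comparison was tested, so no call could change. The number of regions moved to 2180 with a window of 10 kb either side of the TSS, to 2927 with E2F1 peaks within 1 kb merged, and to 108 when every list was cut to the length of the shortest (4857 peaks) by −log10 q. The median fold enrichment was 7.10 with −log10 q of at least 5 and 7.33 with fold enrichment of at least 5, both of which remove weak peaks by construction. It was 6.29 with the 10 kb window, 6.86 with TSS of protein-coding genes only, 6.62 after merging and 6.76 with a background under 3. The intron share was 50.5% with at least 5-fold, 54.0% with a window of 1 kb either side, 50.1% with 10 kb and 47.1% with protein-coding TSS only. The share with an E2F site was 2.01% within 100 bp of the summit and 3.0% with the 7-base core. For AP-1 it was 8.03% with the 10 kb window, 5.94% with protein-coding TSS only, 8.71% after merging and 12.0% within 100 bp. The CpG-island-like share was 15.8% with −log10 q of at least 5, 17.0% with at least 5-fold, 16.3% with no Fra-1 or MYC peak within 1 kb, 12.8% with the 10 kb window, 21.4% with protein-coding TSS only, 15.5% after merging and 9.61% with a longer window and stricter criteria. Except where stated, the cause was not tested. The 7-base core and the background limit were chosen after seeing the data. No paired analysis was possible because each factor has 1 library. With 1 library per factor, the spread between replicates is unknown, and the weakest regions rest on few tags: the lowest −log10 q is 2.02.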
